A study of Mus musculus with 2 samples.

Results

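Genes of cell proliferation, DNA replication and the kinetochore were examined in mouse eyeballs from a model of oxygen-induced retinopathy (OIR). The set is a fixed list of 42 gene symbols, and all 42 were found, each in 1 row, among the 47644 genes of the table. The list was chosen by earlier results of these libraries, that is, the read counts and FPKM values (fragments scaled to transcript length and to the reads assigned to genes) compared below. These values are therefore given as a description, without a test. The study holds 1 control library and 1 OIR library of C57BL/6 mice. OIR pups entered a hyperoxia chamber at day 7, stayed there for 5 days, returned to room air and gave their eyes at day 17. The labels name no genotype, sex or number of animals for either library, no treatment of the control and no collection day of its own. In this model high oxygen halts and prunes the retinal vessels, and room air then leaves the retina hypoxic, so that new vessels sprout.

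A dividing cell passes G1 under D and E cyclins, copies its DNA in S phase from origins licensed by the MCM helicase, and separates its chromosomes in mitosis under Cdk1, cyclin B and the Aurora and Polo kinases. The kinetochore is the protein assembly on the centromere that holds spindle microtubules. Its Ndc80 complex, built from Ndc80, Nuf2, Spc24 and Spc25 in equal parts, makes the contact with the microtubule. In a young mouse eye, neurons have left the cell cycle, while vessel cells, glia, lens and corneal epithelium and blood cells can still divide.

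Promoters of 3 of the 4 Ndc80 complex genes are shown because 1 of these genes, Spc25, stood apart from the others in the values below, and that of Cdk1 is shown as the mitotic kinase gene for comparison. The 250 bases before the RefSeq start site are printed 5′ to 3′ on the gene's strand, here the minus strand in each case, on GRCm38.p6, the assembly of mm10. The windows are chr2:69206214-69206463 for Spc25, chr1:169531465-169531714 for Nuf2, chr17:71526858-71527107 for Ndc80 and chr10:69352913-69353162 for Cdk1. Capitals mark 3 motifs, searched on both strands: CCAAT, which reads as ATTGG on the opposite strand, the cell cycle homology element TTTGAA and an E2F-type motif TTTNGCGC.
Spc25: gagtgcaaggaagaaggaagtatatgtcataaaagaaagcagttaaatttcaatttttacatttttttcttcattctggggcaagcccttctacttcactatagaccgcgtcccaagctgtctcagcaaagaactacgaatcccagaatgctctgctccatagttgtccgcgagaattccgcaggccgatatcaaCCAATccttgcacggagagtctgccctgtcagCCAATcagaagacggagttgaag
Nuf2: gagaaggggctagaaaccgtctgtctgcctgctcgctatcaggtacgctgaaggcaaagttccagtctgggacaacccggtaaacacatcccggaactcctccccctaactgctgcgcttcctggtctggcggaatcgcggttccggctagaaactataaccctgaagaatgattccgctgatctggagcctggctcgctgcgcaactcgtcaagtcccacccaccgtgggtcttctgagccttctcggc
Ndc80: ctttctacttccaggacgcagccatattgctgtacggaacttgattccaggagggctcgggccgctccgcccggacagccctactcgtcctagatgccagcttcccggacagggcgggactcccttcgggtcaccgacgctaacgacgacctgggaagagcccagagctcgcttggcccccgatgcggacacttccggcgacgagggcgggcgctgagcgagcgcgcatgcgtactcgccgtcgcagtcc
Cdk1: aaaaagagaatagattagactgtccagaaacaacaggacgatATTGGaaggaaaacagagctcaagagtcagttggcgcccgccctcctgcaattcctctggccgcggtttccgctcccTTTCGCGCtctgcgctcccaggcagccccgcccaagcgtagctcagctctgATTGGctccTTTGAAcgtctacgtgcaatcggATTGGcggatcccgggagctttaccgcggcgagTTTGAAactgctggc

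The Spc25 window held CCAAT at 55 and 23 bases upstream of the start, and TTTGAA from position 25 after it, outside the printed stretch. Ndc80 had TTTGAA from position 30 after its start and no CCAAT, and the Nuf2 window had none of the motifs. The Cdk1 window held all of them, with TTTGAA at 71 and 15 bases upstream. The search ran over windows from 250 bases before to 50 bases after the start, and 33 of the 42 genes were matched to a window by symbol. CCAAT was in a window of 78.8% of these 33 genes and of 41.1% of all gene symbols in the table. TTTGAA was in 42.4% against 20.2%, and TTTNGCGC in 15.2% against 1.57%. The 5 genes with TTTNGCGC were Cdk1, Mcm3, Mcm5, Mcm6 and Mcm7. By single window rather than by gene, 37.4%, 17.9% and 1.38% of all 32851 windows held the motifs. A match is a description of letters only, and close family members and repeated start sites are among these windows.

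Reads assigned to genes came to 15741235 in the control and 20378793 in OIR. With 1 library in each group no difference has a replicate check, and no p-value was computed. Differences are given as OIR minus control of log2(FPKM + 1), which shrinks the differences of weakly expressed genes, and as the ratio of read shares, OIR over control, with its exact 95% Clopper-Pearson interval. The intervals cover counting error only, since each group is 1 library. Reads carry no molecular identifiers and some may be copies of 1 molecule, so the intervals may be too narrow even for counting error. The tested genes, those that reached 1 FPKM in at least 1 library, numbered 15883, and their median difference was 0.11. A difference of at least 1 in size is called 2-fold, and that holds for 3.07% of these genes in the higher and 0.718% in the lower direction. The eyeball label was borne out by its tissues: the rod transducin gene Gnat1 stood at 3810 FPKM in the control and 3724 in OIR, the lens gene Cryaa at 49529 and 35594, and the corneal keratin gene Krt12 at 59.9 and 148. In such whole-eye RNA, fewer cells of a type and less RNA per cell cannot be told apart.

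Spc25 was the only member at least 2-fold lower in OIR and Cdkn1a, the gene of the cell cycle inhibitor p21, the only member at least 2-fold higher. Outside the Ndc80 complex, members that act in S, G2 and M phase were mostly higher in OIR by less than 2-fold on that scale, and most G1 and replication members lay near 1 in ratio. Of the 42 members 36 lay above 0 and 6 below, with a median of 0.20. Of all tested genes 64.9% lay above 0. The interval of the read-share ratio lay wholly above 1 for 15 members and wholly below 1 for 2, Spc25 and Cdkn1c. The filter of 1 FPKM left 36 members, 7 of them through their OIR level alone, and dropped Spc24, Ndc80, Cdc6, Birc5, Kif11 and Kif20a. All of the 15 and the 2 were among the 36 members left. Among all tested genes these shares were 36.7% and 14.7%, so 15 of 36 is near the background share before rescaling. Of the 15, Nuf2, Mki67, Aurkb and Bub1 passed the filter through OIR alone.

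Directions near 0 depended on the scaling. With the factors that the authors used to scale their counts, 27 members lay above 0 and 15 below, and with reads of lens, mitochondrial and rRNA genes left out 29 and 13. The 27 were above 0 under each of these scalings, and the 6 below 0 without rescaling stayed below. Under the authors' factors, intervals lay wholly above 1 for 13 members and wholly below for 5, with 23.2% and 25.4% of tested genes. With the lens, mitochondrial and rRNA reads left out these were 13 and 4 members, with 25.1% and 23.7% of tested genes. Aurkb and Cenpe left the higher group in both cases. Ccne1 and Mcm7 joined the lower group in both, and Ccnd3 under the authors' factors alone.

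Spc25 (ENSMUSG00000005233, chromosome 2, 69193895 to 69206194, minus strand, mm10) encodes the subunit that pairs with Spc24 at the inner end of the complex. It had 1020 reads in the control and 273 in OIR, or 63.0 and 13.0 FPKM. The control library was the higher, with a read-share ratio of 0.207 (0.180 to 0.237) and a difference of -2.19. Put the other way, the share in the control was 4.84 times that in OIR (4.23 to 5.55). Of the 15883 tested genes only 5 had a lower difference, and among the 12682 genes with at least 100 reads in either library Spc25 was the second lowest (rank 2). In the authors' deposited table Spc25 has a log2 fold change of -2.41 and is 1 of 7 genes marked down. No other member carries a mark in the authors' deposited table. Its span overlaps no other gene with reads.

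The partners of Spc25 in the complex were scarce in both libraries, and none of them was lower by as much. Spc24, which binds Spc25, had 12 reads in the control and 17 in OIR, or 0.565 and 0.618 FPKM, a ratio of 1.09 (0.493 to 2.51). Ndc80, whose globular head binds the microtubule, had 19 and 22 reads, or 0.548 and 0.490 FPKM, and a ratio of 0.894 (0.462 to 1.75). Both intervals include 1, so a difference in either direction was not detectable at this depth. Nuf2, the partner of Ndc80, had 15 reads in the control and 54 in OIR, or 0.470 and 1.31 FPKM. It was higher in OIR, with a ratio of 2.78 (1.55 to 5.31). The 3 partners together had 46 and 93 reads, a ratio of 1.56 (1.09 to 2.27), which included 1 under the authors' factors (0.985 to 2.06). That ratio rested on Nuf2: Spc24 and Ndc80 alone had 31 and 39 reads, a ratio of 0.972 (0.591 to 1.61). The interval of Spc25 lies below the interval of each partner.

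Spc25 also differed from its partners in level. In the control its FPKM was 111 times that of Spc24, 115 times that of Ndc80 and 134 times that of Nuf2. In OIR these ratios of levels were 21.1, 26.5 and 9.97. Spc25 was the highest of the 42 members in the control (rank 1) and ranked 9 in OIR, and it made up 14.8% of their summed FPKM in the control and 3.04% in OIR. Levels between genes depend on the transcript length used. The deposited FPKM of Spc25 implies 1029 bases, while the authors' length column gives 1869. With that column for all genes, chosen after the data were seen, Spc25 stood at 34.7 FPKM in the control and 7.17 in OIR and ranked 3 and 8, behind Cdkn1c and Pcna in the control. It was then 61.4, 63.2 and 141 times Spc24, Ndc80 and Nuf2 in the control, and 11.6, 14.6 and 10.5 times in OIR. Spc25 RNA was thus far above that of each partner with either length. These are levels of RNA, and the subunit proteins were not measured.

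**Figure D1:**
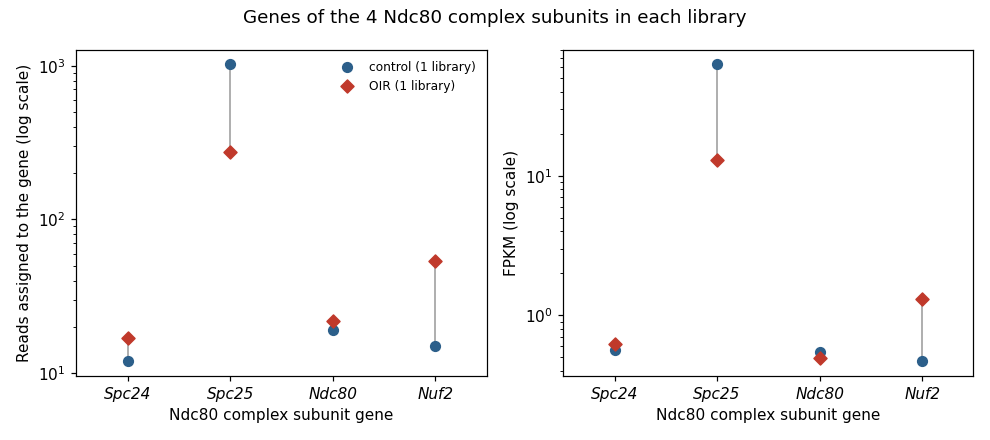
Reads (left) and FPKM (right), both on log axes, of the 4 Ndc80 complex subunit genes in the control library (circles) and the OIR library (diamonds), 1 library each. Spc25 stands at 1020 reads in the control and 273 in OIR, while Spc24, Ndc80 and Nuf2 lie between 12 and 54 reads in both.

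Among the G1 members, cyclins D bind Cdk4 and Cdk6 to start the passage through G1. Ccnd1, the cyclin D1 gene, had 590 reads in the control and 1218 in OIR, or 17.8 and 28.4 FPKM. It was higher in OIR, with a ratio of 1.59 (1.44 to 1.76). Ccnd2 stood at 33.5 and 35.2 FPKM, a ratio of 1.05 (0.961 to 1.15). Ccnd3 stood at 57.1 and 57.9 FPKM, a ratio of 1.01 (0.935 to 1.10). Only cyclin D1 of the 3 had an interval above 1. Under the authors' factors or without lens, mitochondrial and rRNA reads Ccnd2 and Ccnd3 lay below 0 in log2 ratio, and the interval of Ccnd3 lay wholly below 1 under the authors' factors. Cyclins E open S phase with Cdk2. Ccne1 had 63 and 59 reads, or 4.59 and 3.32 FPKM, and was lower in OIR at a ratio of 0.723 with an interval that includes 1 (0.498 to 1.05) but lay wholly below 1 under both rescalings. Ccne2 stood at 3.30 and 3.48 FPKM, a ratio of 1.05 (0.781 to 1.42), below 0 in log2 ratio under both rescalings. Cdk2 itself stood at 5.71 and 6.34 FPKM, a ratio of 1.11 (0.930 to 1.33).

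The 6 MCM genes, whose products form the ring of the replicative helicase, ranged in deposited FPKM from 1.69 for Mcm5 to 17.8 for Mcm7 in the control. In OIR the same genes marked the ends, at 2.05 and 15.7 FPKM. The order depends on the transcript length used. With the authors' length column Mcm3 was the lowest, at 1.56 FPKM in the control and 1.83 in OIR. Mcm7 was still the highest, at 6.43 and 5.65 FPKM. Mcm4 had 160 reads in the control and 314 in OIR, a ratio of 1.52 (1.25 to 1.85). Mcm6 had 134 and 276 reads, a ratio of 1.59 (1.29 to 1.97). These 2 were the MCM genes whose interval lay above 1. Mcm2, Mcm3 and Mcm5 had ratios of 1.18 (0.972 to 1.44), 1.18 (0.887 to 1.57) and 1.21 (0.927 to 1.60). Mcm7 had 300 reads in the control and 341 in the deeper OIR library, a ratio of 0.878 (0.750 to 1.03), and its interval lay wholly below 1 under both rescalings. Cdc6, which loads the ring onto origins, had 12 and 28 reads and a ratio of 1.80 (0.888 to 3.89). Cdc45, which activates the loaded ring, had 54 and 74 reads and a ratio of 1.06 (0.735 to 1.53), below 0 in log2 ratio under both rescalings. The genes of the ring did not keep a common ratio in these 2 libraries, as the counting intervals of Mcm6 and Mcm7 do not overlap. Before rescaling the interval of Mcm7 includes 1. Its span also overlaps Cops6 and Ap4m1 on the other strand, so its reads may include some of theirs.

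Of the replication clamp and nucleotide genes, only Rrm2 differed beyond counting error. Rrm2, the subunit of ribonucleotide reductase that is made in S phase, had 34 reads in the control and 82 in OIR, or 1.90 and 3.54 FPKM. OIR was the higher, with a ratio of 1.86 (1.23 to 2.87). Its partner Rrm1 stood at 5.69 and 5.82 FPKM, a ratio of 1.02 (0.890 to 1.18). Pcna, the sliding clamp of DNA polymerases, stood at 59.4 and 61.1 FPKM, a ratio of 1.03 (0.939 to 1.13). Tyms, which makes thymidylate, stood at 6.56 and 6.67 FPKM, a ratio of 1.02 (0.821 to 1.26). Rrm1, Pcna and Tyms lay below 0 in log2 ratio under both rescalings, so their direction is not settled. Over the 18 G1, licensing, clamp and nucleotide members the median ratio was 1.08.

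All 6 cyclin, kinase and marker genes of S, G2 and M phase had a ratio above 1, also under both rescalings. Before rescaling, 4 of them had an interval above 1. Of all tested genes 64.9% were higher in OIR and 36.7% had an interval above 1. Of the 6, Ccnb1, Ccnb2 and Mki67 passed the filter of 1 FPKM through their OIR level alone. Mki67, which encodes the Ki-67 protein used to mark dividing cells, had 87 reads in the control and 212 in OIR, a ratio of 1.88 (1.46 to 2.44). Its level was low in both libraries, at 0.549 and 1.03 FPKM. Cdk1, the kinase that drives entry into mitosis, had 24 and 57 reads, or 1.51 and 2.77 FPKM; its ratio was 1.83 (1.12 to 3.09). Ccna2, the cyclin A2 gene, had 152 and 328 reads, or 5.68 and 9.47 FPKM. OIR was the higher, with a ratio of 1.67 (1.37 to 2.03). Top2a, the topoisomerase that untangles chromosomes, had 89 and 174 reads and a ratio of 1.51 (1.16 to 1.97). The B cyclins were scarcer. Ccnb1 had 18 and 37 reads, a ratio of 1.59 (0.881 to 2.96), and Ccnb2 23 and 42, a ratio of 1.41 (0.829 to 2.46). The intervals of both B cyclins include 1.

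**Figure D2:**
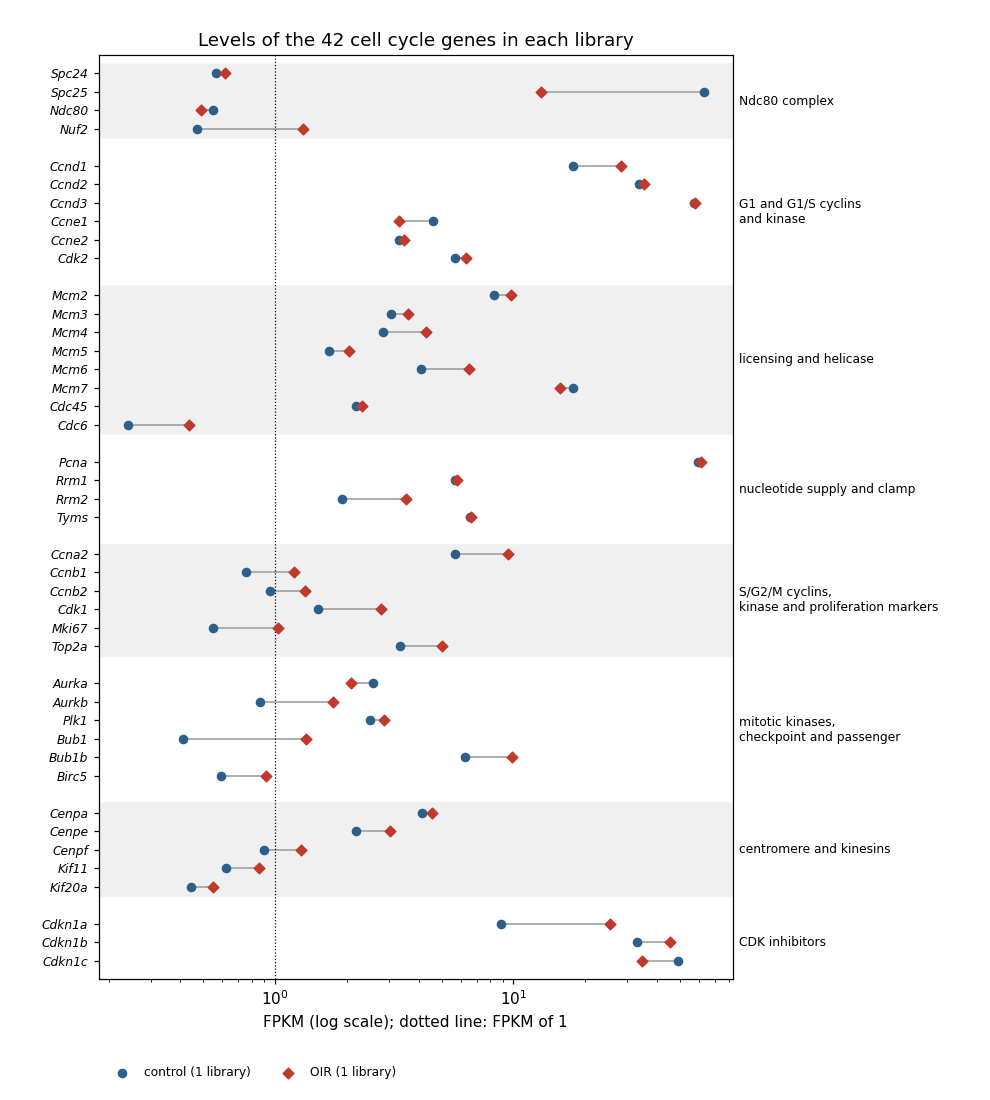
FPKM on a log axis for the 42 members, grouped by role, in the control library (circles) and the OIR library (diamonds), 1 library each, with a grey line joining the pair and a dotted line at an FPKM of 1. Spc25 shows the longest step to lower levels, and Pcna, Ccnd3, Rrm1 and Tyms lie almost on top of each other.

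The spindle checkpoint genes Bub1 and Bub1b were among the higher members. Bub1, a checkpoint kinase at the kinetochore, had 8 reads in the control and 34 in OIR, the highest ratio of all members at 3.28 but with a wide interval (1.49 to 8.21). Bub1b, which encodes the checkpoint protein BubR1, rested on more reads, 130 and 266, with a ratio of 1.58 (1.28 to 1.96). Aurkb, the kinase of the chromosomal passenger complex that corrects faulty attachments, had 13 and 34 reads, a ratio of 2.02 (1.04 to 4.17). Its passenger partner survivin, Birc5, had 20 and 40 reads, a ratio of 1.54 (0.882 to 2.79). Aurka, the spindle pole kinase, had 56 and 59 reads and a ratio of 0.814 (0.555 to 1.19). Plk1, the Polo kinase, had 46 and 68 reads and a ratio of 1.14 (0.774 to 1.70). Aurka was the only 1 of these 6 genes below 1 in ratio. Checkpoint genes outside the members were mixed. Bub3 was lower, at a ratio of 0.903 (0.817 to 0.998). The intervals of Mad1l1, Mad2l1, Ttk, Zw10 and Zwilch included 1. Spdl1, which reached 1 FPKM in OIR alone, had a ratio of 2.02 (1.04 to 4.17).

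Before rescaling, centromere and motor genes were all above 1 in ratio, most with an interval that includes 1. Cenpa, the histone variant that defines the centromere, had 78 and 111 reads, with a ratio of 1.10 (0.815 to 1.49) that lay below 1 under the authors' factors. Cenpe, a kinesin that carries chromosomes to the spindle equator, had 70 and 126 reads, a ratio of 1.39 (1.03 to 1.89). Cenpf, a large kinetochore protein, had 46 and 85 reads, a ratio of 1.43 (0.986 to 2.09). Kif11, the motor that pushes spindle poles apart, had 47 and 84 reads, a ratio of 1.38 (0.955 to 2.02). Kif20a, a motor of cytokinesis, had 25 and 40 reads, a ratio of 1.24 (0.732 to 2.13). Of the 5 intervals only that of Cenpe excluded 1, and not under either rescaling. Over the 17 members of S, G2 and M phase, mitosis and the centromere, leaving out the Ndc80 complex, the median ratio was 1.51. Of these, 16 lay above 0 and 8 had an interval above 1, beside 64.9% and 36.7% of all tested genes. The 17 were counted without the filter of 1 FPKM that defines the tested genes, so the 2 sets are not alike. Birc5, Kif11 and Kif20a did not pass that filter. Ccnb1, Ccnb2, Mki67, Aurkb, Bub1 and Cenpf passed it through OIR alone, with Mki67, Aurkb and Bub1 among the 8. Aurkb and Cenpe left the 8 under both rescalings. Reads of the 17 summed to 932 in the control and 1797 in OIR, a ratio of 1.49 (1.38 to 1.61). Under the authors' factors the ratio was 1.35 (1.25 to 1.46). Without lens, mitochondrial and rRNA reads its interval was 1.27 to 1.49. With the 4 Ndc80 complex genes, 18 of 21 lay above 0, 9 intervals lay above 1 and 1 below, and the median ratio was 1.43. The summed reads were then 1998 and 2163, a ratio of 0.836 (0.787 to 0.889), since Spc25 held 1020 of the control reads.

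**Figure D3:**
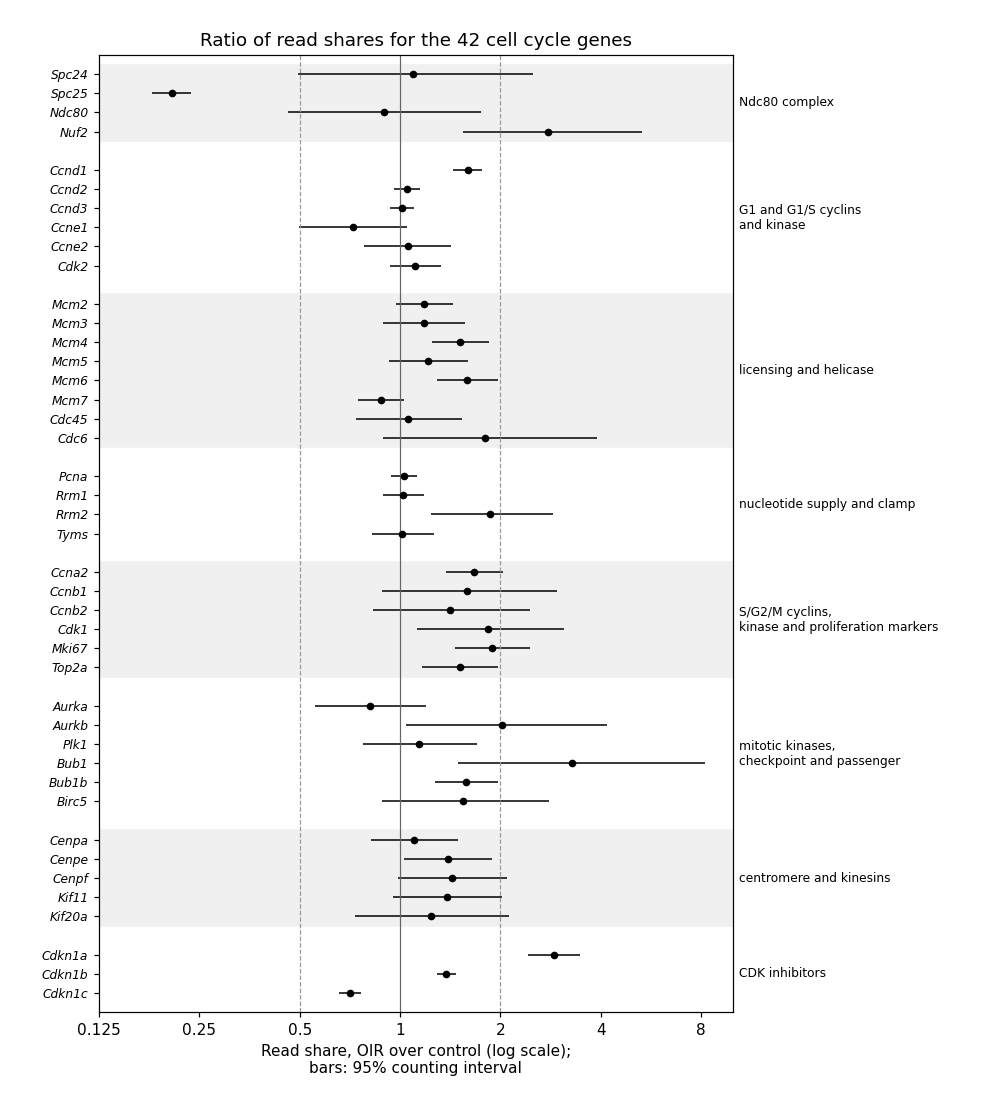
Ratio of read shares, OIR over control, on a log axis for the 42 members, with 95% counting intervals from 1 library per group, and dashed lines at 2-fold in either direction. The interval of Spc25 (0.180 to 0.237) lies apart from all others, and the widest intervals belong to genes with few reads such as Bub1.

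The 3 inhibitors of the Cip/Kip family, which bind and block cyclin-dependent kinases, went different ways. Cdkn1a, which encodes p21, a target of p53 and of stress signals (chromosome 17, 29090979 to 29100722), had 163 reads in the control and 609 in OIR, or 8.84 and 25.5 FPKM. It was the higher in OIR, with a ratio of 2.89 (2.42 to 3.45) and a difference of 1.43, the highest difference of the 42. Cdkn1b, which encodes p27 and holds cells in quiescence, had 1509 and 2688 reads, or 33.0 and 45.5 FPKM, a ratio of 1.38 (1.29 to 1.47). Cdkn1c, which encodes p57, had 1480 and 1355 reads, or 49.2 and 34.8 FPKM, a ratio of 0.707 (0.656 to 0.762). The intervals of these 3 genes do not overlap, and each stayed on its side of 1 under both rescalings. In each library Cdkn1b and Cdkn1c were above the S, G2, M phase, mitosis and centromere members outside the Ndc80 complex in deposited FPKM. Spc25 of that complex was above both in the control. With the authors' length column Spc25 was below Cdkn1c there, at 34.7 against 48.7 FPKM.

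Some reads are uncertain. Spans of 9 members overlap a gene with reads on the other strand, and the sources used here do not say whether strand was used in counting. These are Ccnd1, Ccnd2, Ccnd3, Ccne2, Mcm7, Cdc45, Ccna2, Plk1 and Kif20a. Mcm7 shares its span with parts of Cops6 and Ap4m1, and Ccna2 with Exosc9.

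Other genes of the same processes, from 5 lists that leave out the members, gave 1 gene at least 2-fold higher and 0 lower. Of all tested genes 3.07% were at least 2-fold higher and 0.718% lower. Among the genes named below, Cdca8, Orc1, Myc and Cdkn2b reached 1 FPKM in OIR alone, and Ckap2 in the control alone. The filter thus fixed the direction of these genes. Of 32 other kinetochore genes 25 were tested, with a median difference of 0.09 among those tested. Cdca8, the passenger protein borealin, and Dsn1, of the Mis12 complex that joins the Ndc80 complex to the centromere, were the highest, with 12 and 50 reads (ratio 3.22, 1.69 to 6.64) and 24 and 57 reads (ratio 1.83, 1.12 to 3.09) in control and OIR. The lowest were Zwint, a binding partner of the kinetochore scaffold Knl1, and Cenpl. Zwint, like Spc25, was abundant, with 3939 reads in the control and 3651 in OIR, or 192 and 138 FPKM. Its ratio was 0.716 (0.684 to 0.749). Cenpl had 56 and 45 reads and a ratio of 0.621 (0.410 to 0.936).

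Of 40 other replication genes 38 were tested, with a median of 0.12. Orc1, a subunit of the origin recognition complex, had 15 and 50 reads, a ratio of 2.57 (1.42 to 4.94), and Uhrf1, which keeps DNA methylation through replication, 42 and 125, a ratio of 2.30 (1.61 to 3.34). Orc6 and Rpa1 were lowest, with ratios of 0.817 (0.660 to 1.01) and 0.879 (0.822 to 0.939). Of 35 other mitosis and cytokinesis genes 27 were tested, with a median of 0.25. Above 0 lay 23 of these 27, beside 64.9% of all tested genes. Of the 23, Kif15, Kif23, Kif18a and Nek2 reached 1 FPKM in OIR alone, so the filter placed them above 0. Likewise Ckap2 reached 1 FPKM in the control alone, which placed it below 0. Racgap1 and Cdc20, of cytokinesis and of the exit from mitosis, had ratios of 1.62 (1.32 to 1.99) and 1.81 (1.13 to 2.99). Ckap2, a spindle protein, had 51 and 30 reads and a ratio of 0.454 (0.279 to 0.727), and Cks1b had 0.896 (0.650 to 1.24).

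Of 25 G1 and E2F/RB regulators 22 were tested, with a median of 0.18. E2f6, a repressor of the E2F family, was the gene at least 2-fold higher, at 8.37 and 19.1 FPKM, and Myc had 25 and 96 reads, a ratio of 2.97 (1.89 to 4.81). Mycn had a ratio of 0.780 (0.661 to 0.921) and Ccnh 0.942 (0.834 to 1.06). Of 18 INK4 inhibitors and p53 targets 16 were tested, with a median of 0.13 and none at least 2-fold higher. Above 0 lay 12 of these 16, beside 64.9% of all tested genes. Of the 12, Cdkn2b reached 1 FPKM in OIR alone, so the filter placed it above 0. Beside Cdkn1a at 2.89, Cdkn2b had 14 and 52 reads and a ratio of 2.87 (1.57 to 5.61), and Phlda3 had 1.62 (1.37 to 1.93). Cdkn2d and Ccng1 were lowest, at 0.800 (0.694 to 0.923) and 0.810 (0.767 to 0.855).

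**Figure D4:**
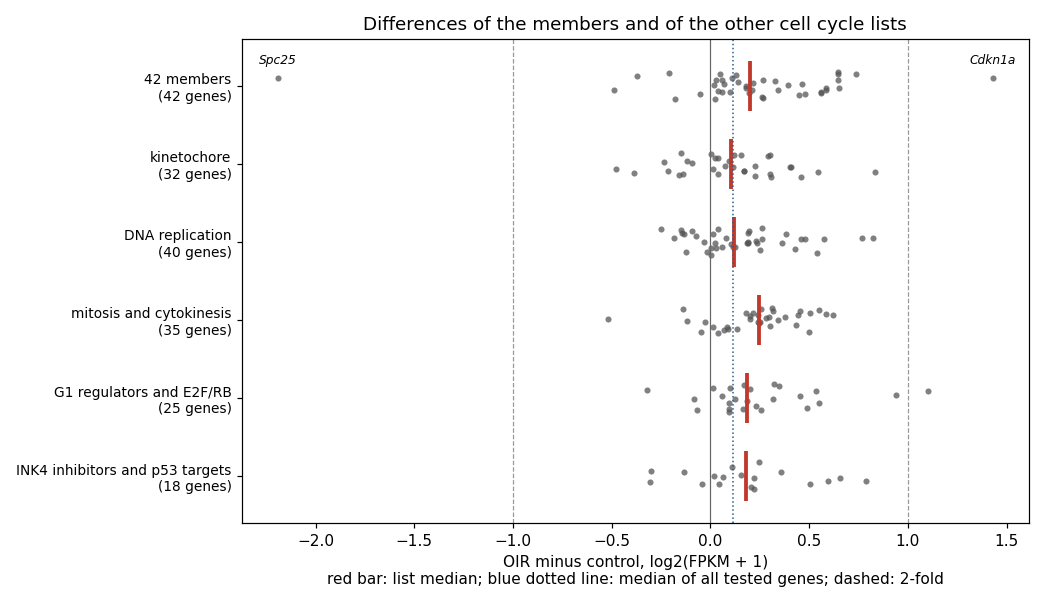
Difference of log2(FPKM + 1), OIR minus control, for each gene of the 42 members and of 5 further lists, including genes under an FPKM of 1, with a red bar at each median, a dotted line at the median of all tested genes (0.11) and dashed lines at 2-fold. Spc25 and Cdkn1a stand alone at the ends of the members' row.

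Markers of several cell types of the eye also differed in sum between the libraries. Corneal and conjunctival epithelium markers, 7 of 8 above 0, summed to 979 CPM (counts scaled to the library total) in the control and 2397 in OIR. Endothelial markers, 7 of 7 above 0, summed to 232 and 365, microglia and macrophage markers, 6 of 6, to 42.5 and 69.9, and erythroid markers, 5 of 5, to 267 and 776. Lens markers, 0 of 7 above 0, summed to 95767 and 68122. Müller glia markers, 2 of 5 above 0, summed to 2294 and 1527, and pigment epithelium markers, 2 of 4, to 979 and 913. Rlbp1, with 6052 reads in the control and 5466 in OIR, was counted in both of these sums. The other pigment epithelium markers were not lower beyond counting error. Rpe65 had a ratio of 0.991 (0.917 to 1.07), Ttr 1.10 (1.07 to 1.13) and Best1 1.67 (0.593 to 5.37). Among Müller glia markers Glul held most reads, 26746 and 20082, while Slc1a3 and Sox9 were higher in OIR, at ratios of 1.36 and 2.40. No marker of these lists was at 0 reads in either library, and the share of rRNA reads was 0.00791% in the control and 0.153% in OIR. The part of these tissues in the differences of the members was not tested.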

How the data were processed

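The 42 symbols, the groups by role and the further lists were chosen with earlier results of these data known. The submitters' processing notes name mm10, HTSeq 0.6.1, TopHat2 2.0.12 and Bowtie2 2.2.3; annotation release and strand setting were not given in the sources used here. The deposited table holds raw read counts per gene and the authors' FPKM values, per the file headers, and count divided by FPKM gave 1 gene length in both libraries (within 0.1%) for all 22320 genes with reads in both. It also holds a scaled signal, in which the authors divided each library's counts by its own factor (15.0 control, 21.4 OIR), with 4 members listed at 0 there in at least 1 library. The authors' deposited log2 fold changes and p-values, from a tool not given here, compare 1 library with 1 library; the p-values were not used.

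In Python 3.11.15 with scipy 1.17.1, 5 lines of broken-off text were dropped, a pseudocount of 1 FPKM and a filter of 1 FPKM were applied, and read-share intervals were exact conditional 95% Clopper-Pearson intervals. No test was run. The calculation was tested on simulated counts. Every member was named, and of each further list the 2 highest and 2 lowest differences among tested genes with at least 10 reads in either library. Further checkpoint genes of the kinetochore list, and genes that passed the filter through 1 library alone, were named in addition. Spans of all 42 members overlapped those of the same identifier in GENCODE M21, which lists all 42 as protein coding. Promoters came from RefSeq, and Spc24, Ccnd1, Ccnd2, Ccne2, Mcm4, Ccna2, Aurkb, Kif20a and Cdkn1c were not matched and not used there. Some marker values are not reported here.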

Additional observations from a re-analysis of the deposited data

How the results depend on the processing

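The count of members at least 2-fold higher was 1 and of those lower 1. Both stayed at 1 without a filter, with a filter of 5 FPKM, with the authors' factors, without lens, mitochondrial and rRNA reads, with centring and with CPM in place of FPKM. With a pseudocount of 0.1 the higher count was 3 of 36 and with a 1.5-fold threshold 8 of 36, the lower count staying at 1. Of the 15883 tested genes, 924 and 1447 were higher under these 2 settings. Called by the counting interval, a rule added after the data were seen, 15 were higher and 2 lower. Of all tested genes 36.7% and 14.7% were called so. The median difference of the 36 tested members, 0.24, was 0.36 with a pseudocount of 0.1, 0.13 with a filter of 5 FPKM (17 members), 0.0897 with the authors' factors and 0.13 after centring. The tested members split 31 above and 5 below 0, but 22 and 13 with the authors' factors (35 tested), 26 and 12 without lens, mitochondrial and rRNA reads (38 tested) and 23 and 13 after centring. The authors' factors shift every log2 ratio by -0.14. With the authors' gene length the Spc25 control level was 34.7 FPKM in place of 63.0. The Spc25 ratio of 0.207 was 0.188, 0.191 and 0.191 under the authors' factors, without those reads and with centring. Over all tested genes, 487 higher and 114 lower became 924 and 254 with a pseudocount of 0.1, 1447 and 409 at 1.5-fold, 251 and 27 with a filter of 5 FPKM, and 451 and 30 with CPM. No paired analysis was possible because each group is 1 library. At median transcript length, 3 reads equal 0.105 FPKM in the control and 0.0814 in OIR.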

Other observations

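Within 50 kb of Spc25 on chromosome 2 the table lists 4 other genes, of which 1 with few reads, Abcb11, was also lower in OIR. Nostrin, a regulator of nitric oxide synthase traffic in endothelium, ends 4564 bases from the 3′ end of Spc25 on the other strand, and had 19 reads in the control and 79 in OIR, a ratio of 3.21 (1.93 to 5.61). G6pc2, 4878 bases beyond the start of Spc25, had 0 reads in both libraries. Abcb11, on the same strand as Spc25 and 32087 bases beyond its start, had 12 reads in the control and 0 in OIR, where a count of 0 allows up to 3 reads. The upper limit of its ratio was 0.278. Gm13613 had 4 and 5 reads. These genes were chosen for their position, after the values of Spc25 were seen.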
